A study of Arabidopsis thaliana with 12 samples.

Results

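Plus-strand RNA of 5 windows was higher in Arabidopsis thaliana seedlings induced for RNA interference against the exosome subunit gene RRP41. It was higher in both RNA fractions that were sequenced. The windows hold the 3′ ends or whole bodies of protein-coding genes. The 5 windows are those of BGLU11, of the acyltransferase gene AT1G03495 together with NAC006, of the methyltransferase gene AT1G73600 together with LCR64, of the 3′ end of BPC7, and of AT5G13210. They are 5 of 1919 windows of 3000 bp, and 5 of 3838 strands of windows. They were selected on the measured plus-strand signal itself, being higher after induction in both fractions, so these changes, and the difference between fractions built from them, are given below as descriptions. No p-value is printed for them, and a count of calls among them restates the choice. The windows belong to a set of putative intragenic enhancers, and the stated purpose of the libraries was to find out whether such sites are transcribed.

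All libraries came from 7-day-old whole seedlings of 1 line, RRP41-iRNAi, which carries an inducible RNA interference construct against RRP41. Induced seedlings (rrp41-i) grew on plates with 17b-estradiol, and uninduced seedlings of the same line, named RRP41 (WT) by the submitters, served as controls. Both groups therefore carry the construct, and the estradiol was present in the induced group only, so that an effect of estradiol and one of RRP41 depletion cannot be told apart. From each total RNA, 1 poly(A)+ library and 1 ribo-minus library (total RNA depleted of ribosomal RNA) were made, with 3 biological replicates per group and 12 libraries in all. RRP41 lies in 0 of the 1919 windows, so its depletion could not be checked in these values. In whole seedlings, a change in the number of cells of a type and a change in RNA per cell cannot be told apart.

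The RNA exosome, of which RRP41 is a core subunit, trims and degrades RNA from its 3′ end in the nucleus and the cytoplasm. Poly(A)+ libraries hold RNA with a poly(A) tail, which is mostly spliced mRNA, whereas ribo-minus libraries hold RNA with and without a tail. The 5 windows hold genes of unrelated families. BGLU11 belongs to the beta-glucosidases, which release sugars from glucosides. AT1G03495 encodes an HXXXD-type (BAHD) acyltransferase, a family that transfers acyl groups to secondary metabolites such as anthocyanins. NAC006 encodes a member of the plant-specific NAC transcription factors. AT1G73600 encodes an S-adenosylmethionine-dependent methyltransferase of the phosphoethanolamine N-methyltransferase type, and LCR64 a small cysteine-rich, defensin-like peptide. BPC7 encodes a basic pentacysteine protein, a family that binds GA-rich DNA. AT5G13210 is annotated as an uncharacterized conserved protein.

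Each deposited value is a signal in whole numbers for 1 strand of 1 window, and not a read count. Total signal was 55804893 to 58489785 in the poly(A)+ libraries, 18738150 to 22715708 in the uninduced ribo-minus libraries and 26531272 to 31455657 in the induced ones. The smallest value above 0 differed between libraries, from 107 to 1005. The values were analysed as deposited, and again with every value under 1005 raised to that common floor. In ribo-minus uninduced replicate 1 the 2 strands had equal values in 100% of windows, so that library does not separate strands. Ribo-minus results of the 5 windows that rest on it are given with and without it, and those of gene families with all libraries.

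The coordinates are those of TAIR10, counted from 1. BGLU11 lies on the plus strand at chr1:630374-633420, and its window, enhancer_000019 at chr1:632020-635019, holds the last 1401 bp (46.0%) of the gene. The next window, enhancer_000022 at chr1:871457-874456, holds all of NAC006 (chr1:871874-872906) and 98.5% of AT1G03495 (chr1:873166-874476), both on the plus strand. The window enhancer_000462 (chr1:27672193-27675192) holds the last 1380 bp (31.2%) of AT1G73600 (chr1:27669152-27673572) and all of LCR64 (chr1:27674288-27674976). On chromosome 2, the window enhancer_000695 (chr2:14930164-14933163) holds the last 735 bp (44.4%) of BPC7 (chr2:14929243-14930898). On its minus strand lie the serpin gene AT2G35555 and the transcribed pseudogene AT2G35570. The window enhancer_001594 (chr5:4215660-4218659) holds the last 1249 bp (42.3%) of AT5G13210 (chr5:4213955-4216908), and on the minus strand part of the non-coding RNA gene AT5G02045. Signal of a window with 2 plus-strand genes cannot be divided between them.

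The place of the windows' midpoints was not itself a criterion of the choice, although the 5 were taken as windows of plus-strand coding genes. The midpoint lay past the 3′ end of a plus-strand gene in 5 of 5 windows, by 99 bp at BGLU11, 50 bp at NAC006, 120 bp at AT1G73600, 251 bp at AT5G13210 and 765 bp at BPC7. Of all windows, 62.8% (1205 of 1919) had their midpoint past the end of a gene of either strand in the same window. Counted over both strands in this way, the chosen windows were also 5 of 5. Within 300 bp of such an end lay 4 of the 5 midpoints and 33.1% (635) of all. With 5 windows these shares are a description. Although the set is one of putative intragenic sites, the 80 bases around the midpoint overlapped only the minus-strand pseudogene AT2G35570 at the BPC7 window. At the other windows they overlapped no annotated gene.

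**Figure D1:**
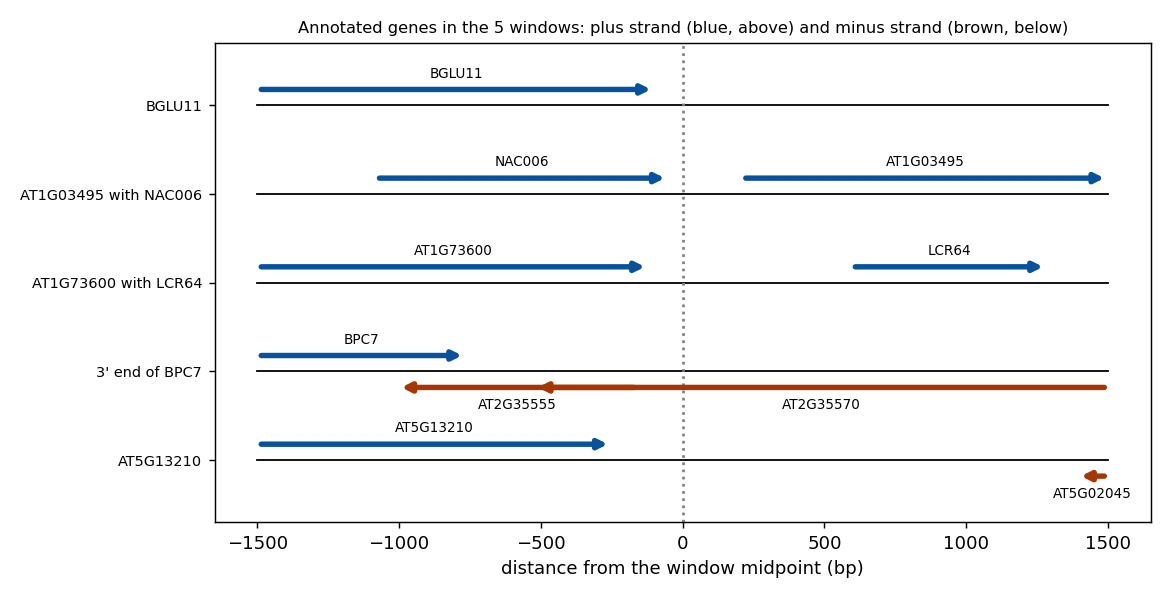
Annotated genes in the 5 windows, plotted by distance from the window's midpoint in bp; blue arrows above a line are plus-strand genes, brown arrows below it minus-strand genes, both cut at the window's edges. The dotted midpoint lies to the right of a plus-strand gene end in each of the 5 windows, nearest at NAC006 (50 bp) and farthest at BPC7 (765 bp).

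The sequences just upstream of the genes are shown because the 5 windows moved together, and so that the genes can be compared for short promoter motifs. They are 250 bases before the annotated start (108 bases at BPC7, which follows close behind another gene), 5′ to 3′ on the plus strand of TAIR10.1, read from the RefSeq assembly. Capitals mark 4 motifs, read on either strand so that reverse complements are in capitals too. These are GAGAGA, the W-box core TTGAC, the G-box CACGTG and the TATA box TATAAA. Their intervals are chr1:630124-630373, chr1:872916-873165, chr1:27668902-27669151, chr1:27674038-27674287, chr2:14929135-14929242 and chr5:4213705-4213954, in the order printed.

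BGLU11: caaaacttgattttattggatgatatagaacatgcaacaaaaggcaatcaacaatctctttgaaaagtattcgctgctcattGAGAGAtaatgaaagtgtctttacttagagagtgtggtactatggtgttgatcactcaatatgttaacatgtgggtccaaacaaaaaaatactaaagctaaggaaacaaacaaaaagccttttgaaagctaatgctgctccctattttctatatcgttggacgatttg
AT1G03495: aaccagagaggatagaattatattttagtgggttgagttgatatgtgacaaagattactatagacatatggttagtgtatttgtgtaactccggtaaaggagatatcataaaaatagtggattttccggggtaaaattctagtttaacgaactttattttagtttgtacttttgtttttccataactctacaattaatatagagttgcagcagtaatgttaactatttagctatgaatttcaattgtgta
AT1G73600: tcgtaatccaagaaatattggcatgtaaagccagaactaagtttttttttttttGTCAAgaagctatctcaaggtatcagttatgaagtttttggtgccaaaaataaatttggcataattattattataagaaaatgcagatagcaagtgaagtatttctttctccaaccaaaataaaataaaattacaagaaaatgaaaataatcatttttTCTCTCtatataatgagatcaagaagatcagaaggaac
LCR64: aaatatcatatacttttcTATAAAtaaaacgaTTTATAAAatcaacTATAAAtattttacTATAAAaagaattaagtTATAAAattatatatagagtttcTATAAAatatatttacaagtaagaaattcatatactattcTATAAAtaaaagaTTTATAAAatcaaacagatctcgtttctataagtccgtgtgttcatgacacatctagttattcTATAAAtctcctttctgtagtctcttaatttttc
BPC7: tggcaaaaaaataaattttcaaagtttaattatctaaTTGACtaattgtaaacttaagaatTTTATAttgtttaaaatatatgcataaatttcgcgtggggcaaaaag
AT5G13210: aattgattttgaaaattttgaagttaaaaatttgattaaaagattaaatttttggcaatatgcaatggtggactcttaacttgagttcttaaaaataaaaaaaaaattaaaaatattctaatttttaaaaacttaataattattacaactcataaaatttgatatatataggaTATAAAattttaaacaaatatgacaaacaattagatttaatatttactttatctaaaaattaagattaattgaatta

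The motif GAGAGA, of the kind that basic pentacysteine proteins bind, was found from 250 bases before to 50 after the start in 2 of the 5 genes counted (BGLU11 and AT1G73600), and in 29.2% of 27443 protein-coding promoters. The W-box core TTGAC was found in 3 of 5 (BGLU11 after its start, AT1G73600 and BPC7) and in 50.5% of all. The G-box CACGTG was found in 0 of 5 and in 7.7% of all. TATAAA was found in 3 of 5 (AT1G03495 after its start, BPC7 and AT5G13210) and in 52.1% of all. None of the 4 motifs was found in all 5 promoters. LCR64, counted apart because it shares the window of AT1G73600, held TATAAA 9 times on the plus strand and 2 times on the minus strand, partly overlapping. In the 80 bases around the 5 midpoints none of the 4 motifs was found. Of all 1919 windows, 8.3% held GAGAGA there, 21.8% TTGAC, 3.1% CACGTG and 10.3% TATAAA. One of these is printed because it lies past the end of BPC7, on the strand whose signal was higher after induction and opposite the pseudogene AT2G35570 (chr2:14931623-14931702, plus strand).

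BPC7 window midpoint: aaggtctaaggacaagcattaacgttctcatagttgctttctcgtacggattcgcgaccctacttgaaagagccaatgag

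By the AT content of the whole window, AT1G03495 with NAC006 (57.9%) and BPC7 (57.3%) stood below the median of all windows (62.7%). BGLU11 (67.5%), AT1G73600 (67.3%) and AT5G13210 (64.5%) stood above it.

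BGLU11 signal was higher after induction in both fractions, with replicates of similar spread in all 4 groups. In poly(A)+ RNA its plus-strand signal was 39286, 31475 and 38538 in uninduced replicates 1 to 3, and 92565, 75554 and 64308 in induced replicates 1 to 3. Ribo-minus values were 6760, 9158 and 10388 uninduced, and 29846, 25875 and 19624 induced. Every induced value was above every uninduced value in both fractions. The mean went from 36433 ± 4310 to 77476 ± 14226 (SD, n = 3) in poly(A)+, a ratio of 2.13. In ribo-minus it went from 8769 ± 1845 to 25115 ± 5153 (SD, n = 3), a ratio of 2.86, or 2.57 without the library that does not separate strands. The coefficient of variation (SD over mean) lay between 11.8% and 21.0% in the 4 groups.

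AT1G73600, with LCR64, had a change of a size like that of BGLU11, from a higher window signal. Its poly(A)+ values were 58097, 81983 and 71705 uninduced, and 142625, 123033 and 173838 induced. In ribo-minus they were 8796, 22983 and 20722 uninduced, and 41295, 33672 and 46726 induced. The groups did not overlap in either fraction, and the ribo-minus library that does not separate strands was the lowest of all. The ratio of means was 2.08 in poly(A)+. It was 2.32 in ribo-minus with all libraries and 1.86 without that library, so that 1 library carries part of the ribo-minus ratio. Coefficients of variation were 17.0% and 17.5% in poly(A)+ and 43.6% and 16.2% in ribo-minus, uninduced and induced.

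AT5G13210 changed by more, and its uninduced replicates were the most spread in poly(A)+. Its poly(A)+ signal was 17958, 2455 and 22727 uninduced, and 77465, 79326 and 65699 induced. Its ribo-minus signal was 2711, 1508 and 6723 uninduced, and 22001, 21470 and 15889 induced. The groups were apart in both fractions, and replicate 2 was the lowest uninduced library in both, which share 1 total RNA. The ratio of means was 5.16 in poly(A)+ and 5.43 in ribo-minus. Without poly(A)+ uninduced replicate 2 the poly(A)+ ratio was 3.65, and without the library that does not separate strands the ribo-minus ratio was 4.81. The coefficient of variation was 73.7% and 74.9% in the uninduced groups of poly(A)+ and ribo-minus, against 9.96% and 17.1% in the induced groups.

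AT1G03495, with NAC006, had low uninduced signal and a large ratio in poly(A)+. Poly(A)+ values were 908, 1138 and 1312 uninduced, and 4793, 7288 and 11793 induced. Ribo-minus values were 2602, 0 and 786 uninduced, and 2933, 3250 and 5347 induced. The groups did not overlap, but in ribo-minus the gap was small, from 2602 in the library that does not separate strands to 2933. The ratio of means was 7.11 in poly(A)+ and 3.40 in ribo-minus. Without that library the ribo-minus ratio was 9.78, or 3.82 with values under the floor raised to it. The size of the ribo-minus change is therefore poorly fixed at this depth, with 2 of 3 uninduced values under the floor.

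The window at the 3′ end of BPC7 was likewise near the floor before induction. Its poly(A)+ signal was 1422, 713 and 1295 uninduced, and 6380, 6302 and 7998 induced. In ribo-minus it was 584, 0 and 1223 uninduced, and 2996, 2799 and 2786 induced. The groups were well apart in both fractions, and the induced ribo-minus replicates were the most even of any group of the 5 windows, with a coefficient of variation of 4.11%. The ratio of means was 6.03 in poly(A)+ and 4.75 in ribo-minus, and 2.57 in ribo-minus with the floor and without the library that does not separate strands.

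**Figure D2:**
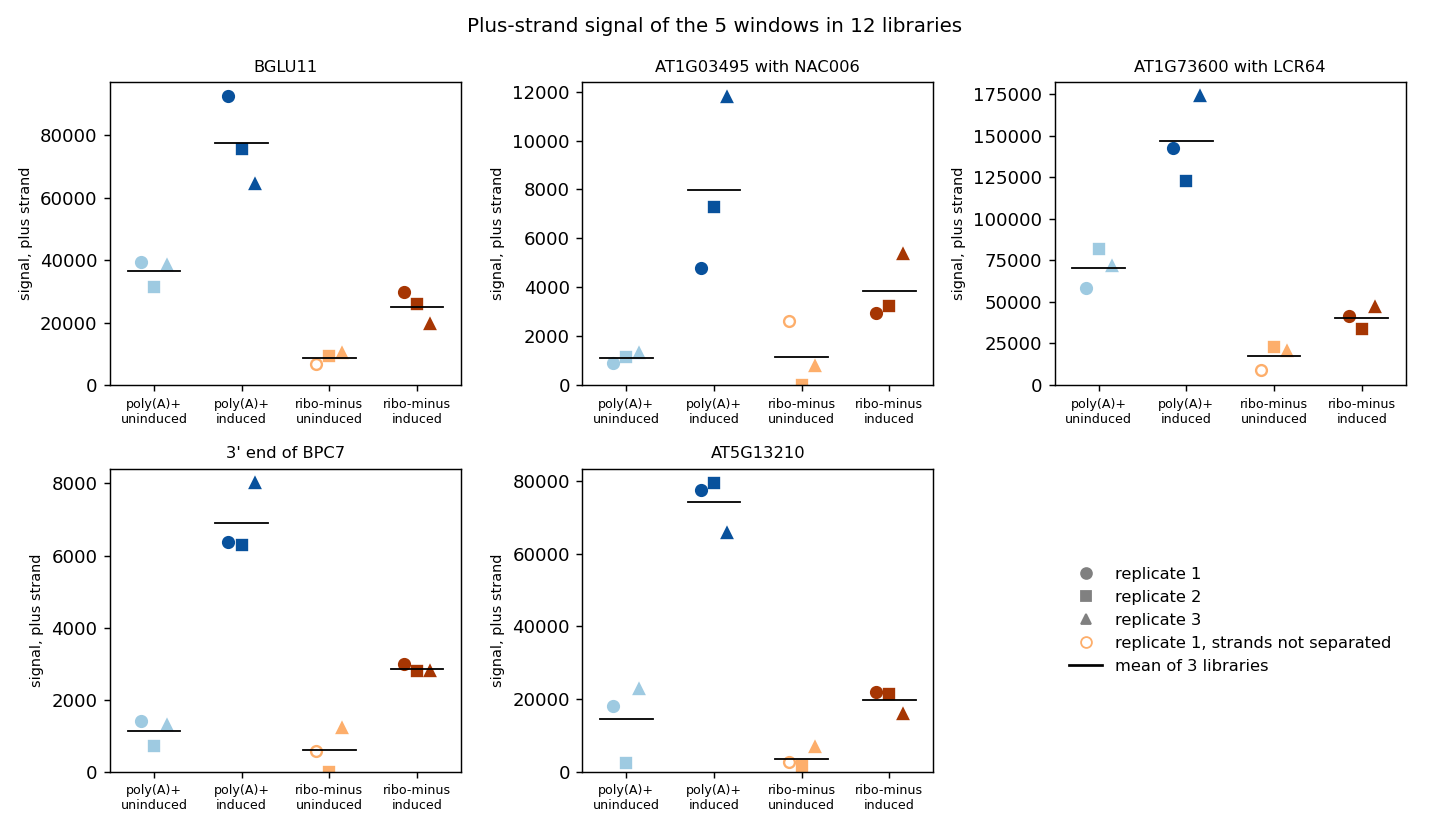
Plus-strand signal (linear axis from 0, own scale per panel) of the 5 windows in the 12 libraries; symbols mark replicates, the open circle is the ribo-minus uninduced library that does not separate strands, and lines are means of 3. In each panel the induced libraries stand above the uninduced ones of the same fraction; at AT5G13210 the poly(A)+ uninduced replicate 2 (2455) lies far below replicates 1 and 3 (17958 and 22727).

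The absence of overlap was a property of the choice. All induced libraries were above all uninduced ones in 5 of 5 windows in either fraction, against 11.6% of tested strands in poly(A)+, 3.84% in ribo-minus and 2.52% (78 of 3093) in both. The same holds for calls, which are given for reference and support nothing about the 5 windows. In limma fits over all strands on log2(value + 1), an adjusted p under 0.05 with a rise was reached by 4 of the 5 windows in poly(A)+, where 2.37% of 3297 strands rose and 4.12% changed either way. AT5G13210 was the window that did not reach it. In ribo-minus it was reached by 1 of 5, AT5G13210, where 0.155% of 3231 strands (5) rose and 0 fell. Changes either way thus also came to 0.155% in ribo-minus, but falls were called under other settings, up to 64 with a stricter filter on low values. An unadjusted p under 0.05 was reached by 714 and 172 strands. With values raised to the floor, 5 of 5 windows were called in poly(A)+, with 5.11% of 2151 strands. In ribo-minus 1 of 5 was called with the floor alone and 0 of 5 without the library that does not separate strands alone. Both choices together gave 5 of 5 in ribo-minus, with 0.725% (15) of 2070 strands. Those 15 strands all rose in poly(A)+ with the floor too, and 5 of them are the windows described here. Among the others were AT3G25490, AT5G27120, ENODL1, AT3G05670 with the small nuclear RNA gene U1.7, AT5G53840 with AT5G53850, and the pseudogene AT1G79245.

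On the log2(value + 1) scale the 5 windows fell into a pair with small changes and 3 with larger ones in poly(A)+. The change was 1.05 ± 0.16 (SE) at AT1G73600 and 1.08 ± 0.15 at BGLU11. It was 2.64 ± 0.29 at BPC7, 2.75 ± 0.34 at AT1G03495 and 2.88 ± 0.77 at AT5G13210. By their SE, the neighbours within each set do not stand apart. Without poly(A)+ uninduced replicate 2, AT5G13210 was at 1.87 ± 0.14. The median of the 5 was 2.64, and that of all tested strands was -0.03.

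In ribo-minus the change was 1.32 ± 0.42 at AT1G73600, 1.52 ± 0.35 at BGLU11 and 2.70 ± 0.43 at AT5G13210. At AT1G03495 it was 4.87 ± 1.98 and at BPC7 5.0 ± 2.08, and both rest on the value of 0 in uninduced replicate 2. With the floor and without the library that does not separate strands they were 1.88 ± 0.33 and 1.37 ± 0.28. Under the same setting the change was 0.88 ± 0.17 at AT1G73600, 1.34 ± 0.20 at BGLU11 and 2.62 ± 0.48 at AT5G13210. Raising low values can only shorten a change that starts below the floor. The median of the 5 was 2.70 as deposited, beside 0.20 over all tested strands; when libraries were scaled to a common median ratio these were 2.57 and 0.07. The median of the 5 was 1.43 with the floor, 1.37 with the floor and without the library that does not separate strands, 1.57 without uninduced replicate 2 and 1.15 with both strands summed.

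The fractions were then set side by side for each window as the ribo-minus change minus the poly(A)+ change. These differences are built from the changes that chose the windows and are a description. The difference was 0.44 ± 0.35 at BGLU11, 0.27 ± 0.47 at AT1G73600 and -0.19 ± 0.88 at AT5G13210 (log2 ± SE). With the floor and without the library that does not separate strands it was 0.26 ± 0.25, -0.17 ± 0.24 and -0.26 ± 1.04. As deposited, the median difference over all tested strands was 0.15, so a shift toward ribo-minus was not particular to these windows. When libraries were scaled to a common median ratio that median was 0.0. The differences at BGLU11, AT1G73600 and AT5G13210 were then 0.27, 0.1 and -0.35. At these 3 genes the difference was small beside its error, which does not show that the changes were equal, least of all at AT5G13210 with its SE near 1. At AT1G03495 the difference was 2.12 ± 2.60 as deposited, -1.27 ± 0.60 with the floor and -0.82 ± 0.48 with the floor and without that library. At BPC7 it was 2.35 ± 2.44, -1.07 ± 0.36 and -1.11 ± 0.30 in the same order. The sign at these 2 windows thus depends on how values under the floor are treated. Over all strands the limma test of this difference was passed by 0.167% (6 of 3600), 0 of the 5 windows among them, with 112 strands at an unadjusted p under 0.05. Nothing is read from the count among the 5.

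**Figure D3:**
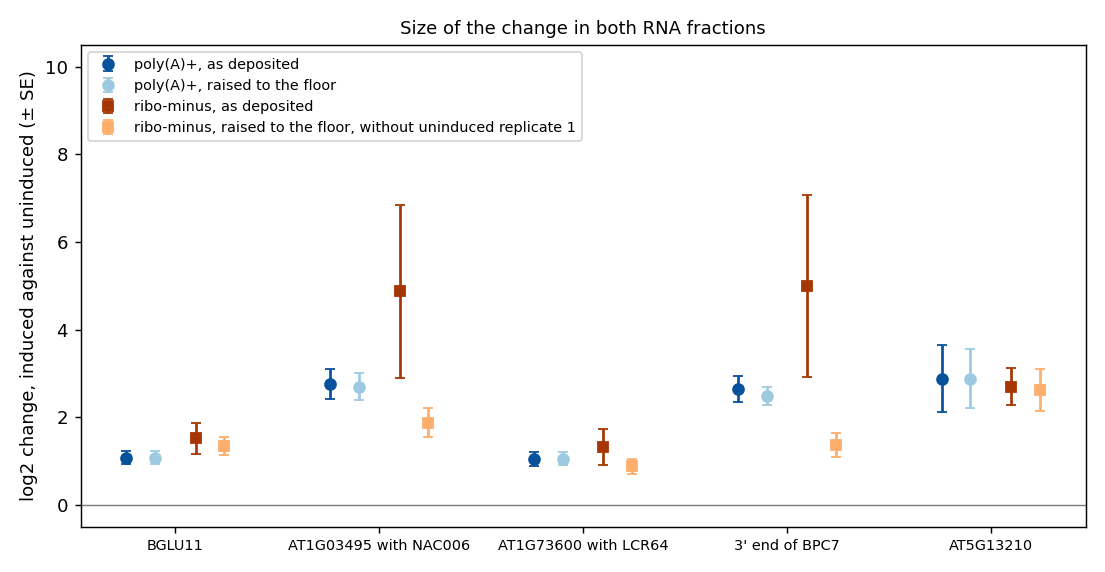
Change after induction (log2 of value + 1, induced against uninduced, limma estimate ± SE) at the 5 windows, in poly(A)+ and ribo-minus RNA, as deposited and with values raised to the floor. The ribo-minus estimates of AT1G03495 (4.87) and BPC7 (5.0) have wide errors and drop to 1.88 and 1.37 with the floor and without uninduced replicate 1; those of BGLU11, AT1G73600 and AT5G13210 move to 1.34, 0.88 and 2.62.

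The comparison of the 2 fractions within a condition was not the criterion of the choice, but it uses the same plus-strand values. A choice by rises favours low uninduced and high induced values in both fractions. The tests below are therefore not fully independent of the choice. Libraries of the same total RNA were treated as independent. In uninduced seedlings ribo-minus signal was 24.1% of poly(A)+ signal at BGLU11, 24.8% at AT1G73600 and 25.4% at AT5G13210, by the means of 3 libraries. The log2 differences were -2.07 ± 0.24 (adjusted p = 4.62e-06, limma), -2.12 ± 0.33 (adjusted p = 4.58e-05) and -1.73 ± 0.63 (adjusted p = 0.033), beside a median of -1.50 over all strands. All 3 passed the threshold, which 41.5% of 3600 strands did in the same direction. The call at AT5G13210 was lost without 1 of poly(A)+ uninduced replicates 1 or 3, ribo-minus uninduced replicates 1 or 2, or ribo-minus induced replicate 1 (adjusted p 0.0716 to 0.193), and without the mean-variance trend (adjusted p = 0.134). At AT1G03495 ribo-minus stood at 100.9% of poly(A)+ with all libraries, and had a log2 difference of -3.12 ± 1.84 (adjusted p = 0.209) that rests on the value of 0. At BPC7 ribo-minus stood at 52.7%, with -3.61 ± 1.72 (adjusted p = 0.112).

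Without the library that does not separate strands, the uninduced shares were 26.8% at BGLU11, 31.0% at AT1G73600, 28.6% at AT5G13210, 53.5% at BPC7 and 35.1% at AT1G03495. The share at AT1G03495 thus rests on that library. BGLU11 (-1.89 ± 0.19, adjusted p = 3.39e-06) and AT1G73600 (-1.68 ± 0.18, adjusted p = 6.95e-06) kept their calls, and AT5G13210 (-1.65 ± 0.80, adjusted p = 0.111) did not. AT1G03495 then passed the threshold (-5.30 ± 1.89, adjusted p = 0.0341) and BPC7 missed it (-4.97 ± 2.00, adjusted p = 0.0569), both with a 0 in 1 of the 2 remaining libraries. With the floor as well, AT1G03495 was at -0.19 ± 0.35 (adjusted p = 0.658).

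In induced seedlings the shares were 32.4% at BGLU11, 27.7% at AT1G73600 and 26.7% at AT5G13210. Their log2 differences were -1.63 ± 0.24 (adjusted p = 6.03e-05), -1.85 ± 0.33 (adjusted p = 0.000231) and -1.92 ± 0.63 (adjusted p = 0.019), beside a median of -1.34 over all strands and 41.3% of strands called lower. The call at AT5G13210 was lost without ribo-minus induced replicate 1 (adjusted p = 0.0618) or 3 (adjusted p = 0.062), and without the mean-variance trend (adjusted p = 0.0998). The shares at AT1G03495 and BPC7 were 48.3% and 41.5%, with -1.0 ± 1.84 (adjusted p = 0.754) and -1.26 ± 1.72 (adjusted p = 0.648). With the library that does not separate strands left out and low values raised to the floor, both passed the threshold. The log2 differences were the same, with smaller SEs of 0.32 (adjusted p = 0.0112) and 0.20 (adjusted p = 7.39e-05). BPC7 also passed with the floor alone (SE 0.26, adjusted p = 0.000722) and without ribo-minus uninduced replicate 2 (SE 0.43, adjusted p = 0.0234). Raising low values narrows the uninduced spread that enters these SEs, so the smaller p-values come in part from the floor. The ribo-minus libraries hold less total signal, and most of each difference was also present in the median of all strands. After scaling to a common median ratio, which brought the medians to 0.03 and 0.04, BGLU11 (-0.51 ± 0.17, adjusted p = 0.0483) and AT1G73600 (-0.55 ± 0.18, adjusted p = 0.0367) were still lower in ribo-minus in uninduced seedlings. None of the 5 passed the threshold in induced seedlings on that scale, with differences from -0.52 to 0.39.

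The opposite strand of the same windows was not used in the choice. An exception is ribo-minus uninduced replicate 1, where the minus-strand value equals the plus-strand value that was used. Past the threshold were 0 of 5 minus strands in poly(A)+ and 0 of 5 in ribo-minus, beside the 4.12% and 0.155% of all strands given above. Without that library 0 passed in ribo-minus too, where 8 of 2868 strands rose and 2 fell. At AT1G03495 with NAC006, where no minus-strand gene is annotated, the minus strand carried most of the poly(A)+ signal before induction. It was 7446, 5892 and 9524 uninduced, and 6896, 5405 and 6632 induced. These groups overlap, with a log2 change of -0.25 ± 0.19 (adjusted p = 0.504) in poly(A)+ and -0.74 ± 0.69 (adjusted p = 0.960) in ribo-minus, or -0.67 ± 0.70 (adjusted p = 0.623) there without the library that does not separate strands. The plus strand thereby went from 10.9%, 16.2% and 12.1% of the window's poly(A)+ signal in uninduced replicates to 41.0%, 57.4% and 64.0% in induced ones. In ribo-minus its share was 64.3%, 73.9% and 77.5% after induction. Before induction it was 0% and 44.0% in replicates 2 and 3, and replicate 1 gives no strand share.

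At AT1G73600 the minus strand was far lower than the plus strand, at 793, 1319 and 911 uninduced and 1991, 2389 and 3602 induced in poly(A)+. Its groups did not overlap, but the log2 change of 1.39 ± 0.33 missed the threshold (adjusted p = 0.0641), and passed it with the floor (1.23 ± 0.26, adjusted p = 0.0193). The plus strand held 98.0% to 98.8% of that window's poly(A)+ signal in each of the 6 libraries, so a small amount of plus-strand RNA read as minus would move with it, which was not tested. The other minus strands were mostly under the floor. In poly(A)+ they had log2 changes of -0.02 ± 0.78 at BGLU11 (adjusted p = 0.994), 0.67 ± 0.49 at BPC7 (adjusted p = 0.483) and 4.53 ± 2.31 at AT5G13210 (adjusted p = 0.304), the last from values of 0 to 471 uninduced and 764 to 2021 induced.

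The name BPC7 gives the position of its window, and does not show that RNA of the whole gene rose. A second window, chr2:14927471-14930470, overlaps it by 307 bp and holds 74.2% of BPC7 (1228 bp) together with 80.6% of the upstream DNAJ heat shock gene AT2G35540. There the poly(A)+ plus-strand signal was 3215, 3320 and 3686 uninduced, and 2972, 2818 and 3083 induced. All induced values lay below all uninduced ones, with a log2 change of -0.20 ± 0.15 that did not pass the threshold (adjusted p = 0.484). In ribo-minus the mean went from 956 ± 323 to 905 ± 272 (SD, n = 3), near the floor, with a log2 change of -0.06 ± 1.05 (adjusted p = 0.987), or -0.36 ± 0.63 (adjusted p = 0.814) without the library that does not separate strands. The change of 2.64 ± 0.29 in the window at the 3′ end was thus not seen in the window with most of the gene, although the difference between the windows was not itself tested. Plus-strand signal at the 3′ end was 67.5% to 78.4% of the window's poly(A)+ signal uninduced and 88.0% to 93.8% induced. Where in the window the added plus-strand RNA lies cannot be read from 1 value per window. Its first 307 bp, however, also lie in the second window, which did not rise.

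**Figure D4:**
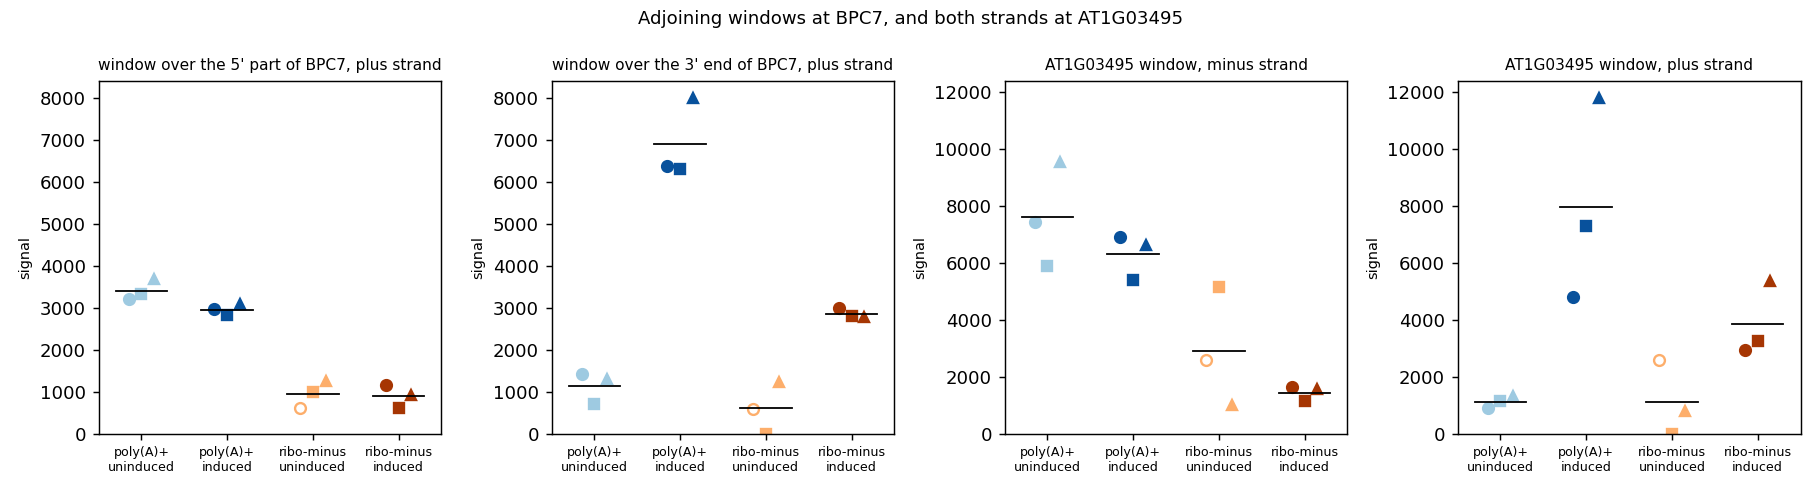
Signal (linear axes from 0) at BPC7 and AT1G03495 by group, with circles, squares and triangles for replicates 1, 2 and 3, the open circle for the library that does not separate strands, and lines for means of 3. The window over the 5′ part of BPC7 stays near 3000 in poly(A)+ while the one over its 3′ end goes from a mean of 1143 to 6893, and at AT1G03495 the minus strand (6311 induced) stays near its uninduced mean (7621) while the plus strand goes from 1119 to 7958.

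Relatives of the 5 genes were followed wherever another window held one on its strand. Among NAC genes, 4 of 10 other strands rose in poly(A)+ and 0 fell, where 2.37% of all strands rose. They are NAC044 (0.54 ± 0.07, adjusted p = 0.00742), in a window shared with AT3G01590, and 3 overlapping windows of NAC082, shared with VPS9B, at 0.32 to 0.34 (adjusted p 0.023 to 0.0275). At NAC044 the poly(A)+ signal was 14952, 15220 and 14741 uninduced, and 21804, 21146 and 22566 induced, so the groups were apart. The 3 NAC082 windows count the same RNA, and NAC strands in ribo-minus gave 0 rises and 0 falls of 10. Their changes were small beside the 2.75 ± 0.34 of the window with NAC006.

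No other family had a member past the threshold in either fraction. These were 4 further strands of BAHD acyltransferases, 28 of methyltransferases, 3 of LCR or defensin-like genes and 2 of BPC genes, 1 of the latter being the overlapping window of BPC7. Median log2 changes in poly(A)+ were 0.11, -0.19, -0.58 and -0.14 in that order, and 0.30, -0.01, -1.41 and 0.02 in ribo-minus, against -0.03 and 0.20 over all strands. The smallest p among the acyltransferases in poly(A)+ was at AT1G03940 (with VPS2.3), an anthocyanin acyltransferase gene, at 0.28 ± 0.16 (adjusted p = 0.362). Among methyltransferases it was at AT1G24610, at -0.43 ± 0.09 (adjusted p = 0.0506). The defensin-like gene AT3G59930 was lower in both fractions, at -1.27 ± 0.39 (adjusted p = 0.106) and -1.67 ± 0.45 (adjusted p = 0.337), without passing the threshold. In ribo-minus the smallest p were at CER2 (0.36 ± 0.37, adjusted p = 0.960), AT5G10830 (-1.49 ± 0.61, adjusted p = 0.914) and BPC6 (0.11 ± 0.36, adjusted p = 0.960). No further window held a beta-glucosidase or a relative of AT5G13210. Exosome and cofactor genes were looked for by symbol, which matched 6 genes of the annotation. Genes annotated under other symbols may have been missed. Of these 6, CER7, an exosome core subunit gene, was the 1 found in a window. Its change was 0.12 ± 0.10 (adjusted p = 0.519) in poly(A)+ and 0.62 ± 0.46 (adjusted p = 0.960) in ribo-minus.

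Across the 12 libraries, the pattern of each window was compared with the mean pattern of the other 4 after scaling each to unit spread. Pearson's r was 0.88 at AT5G13210, 0.85 at BGLU11, 0.82 at BPC7, 0.73 at AT1G03495 and 0.72 at AT1G73600, a likeness that the choice by the same direction of change in part fixes. Of 2134 strands above 0 in every library, the pattern most like the mean of the 5 was that of the pseudogene AT1G79245 (minus strand, r = 0.92 over 12 libraries). Its poly(A)+ signal was 171891, 135310 and 165739 uninduced, and 772879, 682072 and 653313 induced. Next came NF-YB8 with AT2G37070 (r = 0.91), the aspartyl protease gene NANA and the splicing factor gene SR34b with EID1 (both r = 0.90), and the purple acid phosphatase gene PAP18 (r = 0.89). For NANA the median signal went from 8612 to 14170 in poly(A)+ and from 2347 to 5886 in ribo-minus, and for SR34b from 13382 to 25653 and from 3408 to 7952. These medians include the library that does not separate strands. At NANA the ribo-minus groups overlapped, with 5592 in uninduced replicate 3 and 5062 in induced replicate 2. At PAP18 they overlapped too, with 6948 in uninduced replicate 3, and 4308 and 4845 in induced replicates 1 and 3. The libraries of a fraction share depth and scaling, which enters every such r.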

How the data were processed

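Poly(A)+ (TruSeq Stranded mRNA) and ribo-minus (TruSeq Stranded Total RNA with Ribo-Zero Plant) libraries were made from the same total RNA, per the labels. The submitters' processing notes name CASAVA 1.8.2, TopHat2 2.0.9, Cufflinks 2.1.1, Cuffdiff and TAIR10. The authors deposited a signal per 3000 bp window and strand in whole numbers. How it was made and scaled is not given in the sources used here, so its depth is unknown. Genes came from the RefSeq annotation of TAIR10.1, and all 1919 windows lay within its chromosomes.

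Groups and replicate numbers came from the labels. Values were analysed without rescaling as log2(value + 1) with limma 3.58.1 (lmFit, eBayes with trend) in R 4.3.3. A strand was tested where above 0 in at least 3 libraries of the fit. Benjamini-Hochberg adjustment ran over all tested strands (threshold 0.05). The 6 libraries of a fraction entered each knockdown fit, and fraction contrasts and the difference of changes used all 12 libraries with 4 group means. The fits were run on simulated data with a common normal spread. Changes were added there only to strands above the floor in every library of the fit. That setting does not cover windows with values under the floor, such as AT1G03495 and BPC7. Python 3.11.15 with pandas 2.3.3, numpy 2.4.6 and matplotlib 3.10.9 made the tables and plots.

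The windows and gene lists were chosen with earlier results of these data known. Named genes were the 5 windows, their genes, opposite strands and overlapping windows, the family strands past the threshold (at most 6) or the 1 with the smallest p, and the 5 most similar strands. Strands listed as called in both fractions were named after their values were seen. Pairing between fractions comes from the labels. Deviations of same-numbered libraries of the 2 fractions correlated with r of 0.253 to 0.328 in induced seedlings. In uninduced seedlings r was 0.026 to 0.175, within the range between uninduced and induced libraries of the same number (-0.031 to 0.205). A replicate block changed no call of the 5 windows in the fraction contrasts. That block is the replicate number, which induced and uninduced libraries share, and not the total RNA. Pairs of libraries from the same total RNA were therefore not modelled, and the fraction contrasts treat all libraries as independent. Alternatives covered filters, pseudocount, scaling, trend, floor, block, summed strands and left-out libraries.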

Additional observations from a re-analysis of the deposited data

How the results depend on the processing

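No direction was reversed at the 5 windows in any alternative for the change in either fraction. The median poly(A)+ change (2.64) ran from 1.87 to 2.77 over left-out libraries, with 1.87 without poly(A)+ uninduced replicate 2, and was 1.06 with both strands summed. In ribo-minus (2.70) it ran from 1.57 (without uninduced replicate 2) to 3.27 over left-out libraries, and was 1.43 with the floor, 1.37 with the floor and without the library that does not separate strands, and 1.15 with both strands summed. The induced fraction contrast called 3 windows as designed, 0 with median-ratio scaling, and 5 with the floor and without the library that does not separate strands. On the opposite strand in poly(A)+ 0 were called as designed, 1 with a stricter filter and 1 with the floor. Uninduced and induced libraries share only a number (r of same-numbered deviations -0.031 to 0.205); with a replicate block the medians were 2.64, 2.70 and, for the difference of fractions, 0.44, and 3 windows were called in poly(A)+ and 1 in ribo-minus. Over all strands, 78 rises in poly(A)+ became 35 with the block, 15 with all 12 libraries in 1 fit and 126 without a filter, and 5 in ribo-minus became 2 to 15. Falls in ribo-minus (0 as designed) numbered 64 with the stricter filter, 48 and 46 without uninduced replicates 2 and 3, 29 without a filter and 18 with the floor and without the library that does not separate strands. Differences between fractions (1 higher in ribo-minus and 5 lower) became 32 and 9 without that library. Poly(A)+ calls among the 5 were 3 to 5 over left-out libraries (AT1G73600 was lost without uninduced replicate 3), 2 without the trend and 0 with all 12 libraries in 1 fit. Over left-out libraries ribo-minus calls were 0 to 3, with 0 without uninduced replicate 1 or induced replicate 1. Ribo-minus calls among the 5 were also 0 with median-ratio scaling and 0 without the trend. The stricter filter left 3 windows (BGLU11, AT1G73600 and AT5G13210) in ribo-minus and in the fits on all libraries. It called 2 of them in ribo-minus and 3 in each fraction contrast, and no median of 5 could be had. Signals near the floor limit AT1G03495 and BPC7.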
